A study of Mus musculus with 7 samples.

Results

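The interleukin-1 (IL-1) family and the inflammasome were followed through 10 genes in damaged mouse utricles, the vestibular organs that sense linear acceleration. The set held 4 cytokines (*Il1a*, *Il1b*, *Il18* and *Il33*), the receptor antagonist *Il1rn*, the receptor chains *Il1r1* and *Il1rap*, and the inflammasome genes *Nlrp3*, *Pycard* and *Casp1*. The 10 genes are a fixed list, out of 32285 genes counted, and they were chosen by their values in the same contrast that is described below. Their own differences between the groups are therefore given as a description. Counts of the 10 that met a limit stand beside the share of all genes and support nothing. The RNA came from utricle explants of wild-type C57BL/6J mice at P2, and each library held 12 pooled utricles. All explants were exposed to 2 mM gentamicin, an aminoglycoside that kills hair cells, for 24 h and were collected 5 days after the injury. The Gent+Fos OE group (4 libraries) also received AAV-PHP.eB Fos, a virus that expresses the transcription factor c-Fos from the CMV promoter, for 48 h, and the Gent group (3 libraries) is labelled with gentamicin only. Whether the Gent explants received a control virus is not settled by the labels. A figure legend of the paper names a control AAV group for the Fos comparison, while the names given to the Gent counts hold letters that may stand for shRNA, and so the meaning of every difference rests on the group labels. An effect of the virus itself and an effect of Fos cannot be told apart here. The CMV promoter is active in many cell types, and the whole organ was sequenced, so the cells that made each transcript were not resolved.

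IL-1α and IL-1β are cytokines that bind the same receptor, which is built from IL-1R1 and the shared chain IL-1RAcP, the product of *Il1rap*. The antagonist encoded by *Il1rn* occupies IL-1R1 without recruiting that chain, and bound receptor signals through MyD88 and IRAK kinases to NF-κB. IL-1β and IL-18 are made as inactive precursors that caspase-1 cleaves once a sensor such as NLRP3 has gathered the adaptor ASC, encoded by *Pycard*, into an inflammasome. IL-33 is a nuclear protein of epithelial and stromal cells that acts when released from damaged cells, through its receptor ST2, encoded by *Il1rl1*. Macrophages reside in the vestibular organs and are a known source of IL-1.

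Library totals ran from 27879889 to 34335214 counts, and levels are given as CPM, counts scaled to a fixed library total after TMM normalization. The 10 genes had between 49 counts (*Il1a* in Gent+Fos OE replicate 1) and 14611 counts (*Il33* in Gent replicate 3) in a library, and all 10 were among the 17155 genes that passed the filter on low counts. *Fos* itself ranged over 34.6 to 40.6 CPM in Gent and over 149 to 167 CPM in Gent+Fos OE. 1 library, Gent replicate 2, was unlike the rest. Its deviations from the gene means fell with gene length (Spearman rho = -0.50 across genes), and 2.86% of its counts were mitochondrial, against 1.74% to 1.99% elsewhere. Deviations also fell with gene length in Gent replicate 3 (rho = -0.22). They rose in Gent replicate 1 (0.15) and in the Gent+Fos OE libraries (0.12 to 0.33), so the trend went partly with the group. Values without Gent replicate 2 are given where they change a direction or a call at 0.01. This covers the 10 genes and 15 of the pathway genes named. Of the marker lists checked, supporting cell genes (*Gjb2*, *Oc90*) and hair cell genes (*Otof*, *Myo6*) were present in all libraries, while *Ocm* was at most 0.433 CPM. The summed level of 8 supporting cell markers was 2346 to 3167 CPM in Gent+Fos OE and 1751 to 2080 CPM in Gent, and 1 of the 8, *Otog*, rose (log2 difference 1.25, edgeR, adjusted p = 0.00851). All 6 melanocyte markers were lower in Gent+Fos OE, 5 of them under an adjusted p of 0.05 and 2 under 0.01. The part of these shifts in the results was not tested.

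*Il1a* and *Il1b* neighbour each other on chromosome 2, with *Il1rn* far from them on the same chromosome, and their promoters are shown because Fos is a subunit of AP-1, a factor that binds the motif TGANTCA. The 250 bases before the RefSeq start site (GRCm38.p6) are given 5′ to 3′ on the gene's strand, with matches to AP-1 (TGANTCA), CRE (TGACGTCA), PU.1 (GAGGAA) or the κB consensus on either strand in capitals. *Il1b* lies at chr2:129371140-129371389 (minus strand), *Il1a* at chr2:129309973-129310222 (minus strand) and the *Il1rn* start site that carries a match at chr2:24336610-24336859 (plus strand).
Il1b: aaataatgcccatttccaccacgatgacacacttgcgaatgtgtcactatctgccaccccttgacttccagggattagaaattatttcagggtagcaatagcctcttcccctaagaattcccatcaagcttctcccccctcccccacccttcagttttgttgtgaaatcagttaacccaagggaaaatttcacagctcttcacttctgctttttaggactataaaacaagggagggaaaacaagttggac
Il1a: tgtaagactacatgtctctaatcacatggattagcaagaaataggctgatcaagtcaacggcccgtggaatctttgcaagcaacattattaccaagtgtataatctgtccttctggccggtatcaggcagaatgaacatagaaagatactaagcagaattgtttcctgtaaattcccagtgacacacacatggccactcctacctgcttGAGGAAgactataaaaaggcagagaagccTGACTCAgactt
Il1rn: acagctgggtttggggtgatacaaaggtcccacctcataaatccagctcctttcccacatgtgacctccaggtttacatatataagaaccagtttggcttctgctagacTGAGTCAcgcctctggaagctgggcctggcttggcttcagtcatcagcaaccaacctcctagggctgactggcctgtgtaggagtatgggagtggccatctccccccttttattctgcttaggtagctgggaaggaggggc

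The *Il1a* promoter held an AP-1 match whose first base lies 12 bases before the start site and a PU.1 match that begins 41 bases before it. The *Il1rn* promoter held an AP-1 match that begins 141 bases before its start site, and the *Il1b* window held none of the 4 motifs. Over windows of 250 bases before to 50 after the start site, the 10 genes had 15 RefSeq entries, of which 2 held AP-1, 0 held CRE, 5 held PU.1 and 2 held the κB consensus. Among all 32817 such windows, 7.81% held AP-1, 1.79% CRE, 28.3% PU.1 and 8.46% the κB consensus. PU.1 is a transcription factor of macrophages, and its letters were found 1 time each in the windows of *Il1a*, *Pycard* and *Casp1*, 2 times in *Il33* and 3 times in *Nlrp3*. These matches are letters only, and binding at these places was not analysed here.

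*Il1b* and *Il1a* were lower in every Gent+Fos OE library than in any Gent library. In the mm10 coordinates of the files the genes lie at chr2:129364570-129371139 (*Il1b*) and chr2:129299610-129309972 (*Il1a*). *Il1b* measured 5.07, 7.60 and 6.59 CPM in Gent replicates 1 to 3. In Gent+Fos OE replicates 1 to 4 it measured 1.89, 1.84, 1.77 and 1.82 CPM. The Gent+Fos OE libraries thus lay close together and well below the lowest Gent library, and the difference was -1.81 ± 0.22 on the log2 scale (SE, edgeR), which is 3.50-fold. With 51 to 60 counts in a library the counting error is 13.3%, larger than the 2.62% by which these 4 libraries varied. *Il1a* measured 6.30, 6.60 and 8.41 CPM in Gent and 1.60, 4.53, 1.74 and 3.21 CPM in Gent+Fos OE. Its Gent+Fos OE libraries were spread widely, with replicate 2 the highest, and the difference was -1.36 ± 0.34 (2.56-fold). Reads on 11.2% of the exonic bases of *Il1a* fall also on *Gm14023* and were not counted, so its level is less certain.

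The other cytokines, *Il18* (chr9:50554827-50581840) and *Il33* (chr19:29925114-29960718), did not separate the groups. *Il18*, whose product induces interferon-γ, measured 3.63, 4.01 and 4.71 CPM in Gent and 3.65, 2.20, 2.66 and 4.35 CPM in Gent+Fos OE. The values overlapped, with a difference of -0.36 ± 0.27. *Il33* was by far the most abundant of the 10 genes, at 414, 324 and 422 CPM in Gent and 303, 245, 360 and 336 CPM in Gent+Fos OE. Its groups also overlapped, with a difference of -0.32 ± 0.16. Among the cytokines the size of the difference thus went from *Il1b* through *Il1a* to the overlapping *Il18* and *Il33*.

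The antagonist *Il1rn* (chr2:24336853-24351494) measured 36.9, 35.4 and 46.1 CPM in Gent and 25.6, 17.1, 26.9 and 34.9 CPM in Gent+Fos OE. The highest Gent+Fos OE library lay just under the lowest Gent library, and the difference was -0.60 ± 0.21 (1.51-fold). *Il1b* differed more than its antagonist. The ratio of *Il1rn* to *Il1b* levels, taken per kb of exonic length, was 2.51, 1.61 and 2.41 in Gent and 4.66, 3.20, 5.24 and 6.61 in Gent+Fos OE. Every Gent+Fos OE library was above every Gent library in this ratio (4.93 ± 1.41, SD, n = 4, against 2.17 ± 0.493, n = 3). Against the sum of *Il1a* and *Il1b* the groups overlapped, since the ratio was 0.947 in Gent+Fos OE replicate 2, within the Gent range of 0.874 to 1.14, and 2.45 to 2.69 in its other replicates.

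The receptor chains went the other way or not at all. *Il1r1* (chr1:40225080-40317257), the signalling receptor, measured 18.4, 15.4 and 14.99 CPM in Gent and 22.0, 19.3, 27.3 and 22.6 CPM in Gent+Fos OE. It was the 1 gene of the 10 that was higher in every Gent+Fos OE library, by 0.49 ± 0.16 on the log2 scale (1.40-fold). *Il1rap* (chr16:26581704-26730117), the shared chain, measured 24.8, 12.0 and 19.3 CPM in Gent and 21.4, 22.6, 20.4 and 20.9 CPM in Gent+Fos OE. It had no stable direction, since its log2 difference was 0.19 ± 0.21 with all libraries, -0.05 without Gent replicate 2, and -0.08 after a gene length trend was removed. *Il1rap* has the longest exons of the 10 genes (11360 bases), and its lowest value was in Gent replicate 2, the library whose deviations fell most with gene length.

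The means of the 3 inflammasome genes were lower in Gent+Fos OE by less than that of *Il1b*, with overlapping groups for *Casp1*. The sensor *Nlrp3* (chr11:59541568-59566956) measured 13.3, 10.3 and 11.4 CPM in Gent and 6.68, 5.02, 8.99 and 6.10 CPM in Gent+Fos OE. These groups did not overlap, and the difference was -0.80 ± 0.21 (1.75-fold). The adaptor gene *Pycard* (chr7:127989708-127993867) measured 19.1, 24.1 and 19.7 CPM in Gent and 13.1, 11.9, 16.0 and 18.4 CPM in Gent+Fos OE. It did not overlap either, though Gent+Fos OE replicate 4 came close to Gent replicate 1, and the difference was -0.50 ± 0.18. The protease gene *Casp1* (chr9:5298508-5307290) measured 16.5, 16.3 and 12.6 CPM in Gent and 10.8, 7.75, 7.54 and 13.4 CPM in Gent+Fos OE. Its groups overlapped through Gent replicate 3 and Gent+Fos OE replicate 4, with a difference of -0.62 ± 0.22.

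**Figure D1:**
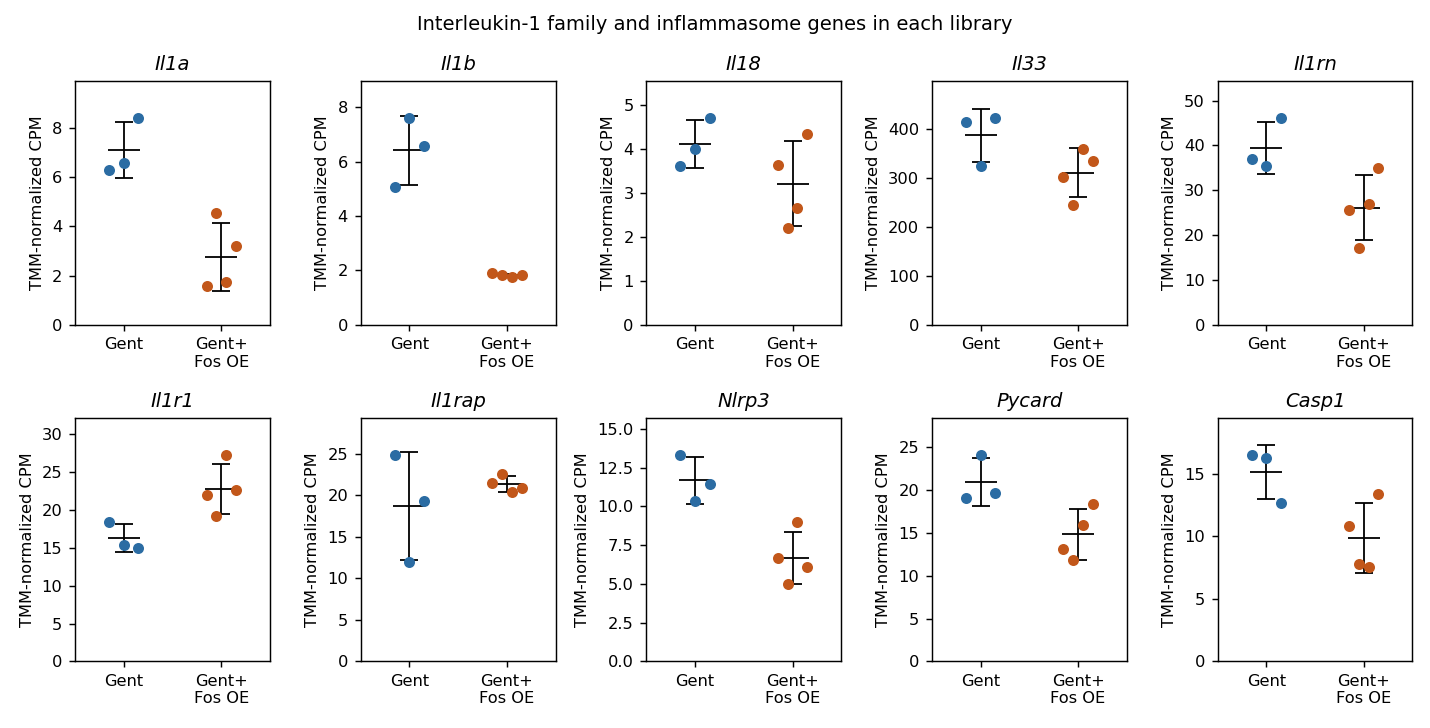
TMM-normalized CPM (y axis, from 0 in each panel) of the 10 genes in the 3 Gent and the 4 Gent+Fos OE libraries; each point is 1 library, the line is the group mean and the bar its SD. *Il1b* shows the widest separation, with Gent+Fos OE at 1.77 to 1.89 CPM and Gent at 5.07 to 7.60 CPM, and *Il1rap* shows the low Gent replicate 2 at 12.0 CPM.

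Of the 10 genes, 5 were lower without overlap between the groups (*Il1a*, *Il1b*, *Il1rn*, *Nlrp3* and *Pycard*) and 1 was higher (*Il1r1*). Among all 17155 tested genes, 12.2% were lower and 11.3% higher without overlap. As a description, 1 of the 10, *Il1b*, was within the study's limits in edgeR (adjusted p under 0.01 and a log2 change over 0.25 in size), where 0.28% of tested genes were called lower and 0.134% higher. With DESeq2 these were 2 of the 10, *Il1a* and *Il1b*, against 1.6% lower and 1.31% higher of 20975 genes. The 10 genes were picked from this contrast, so nothing is read from these counts. The edgeR count was 0 of the 10 when Gent replicate 3 or any Gent+Fos OE library was left out. The log2 difference of *Il1b* ranged from -1.95 to -1.68 over the 7 fits with a library left out, and that of *Il1a* from -1.71 to -1.17.

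**Figure D2:**
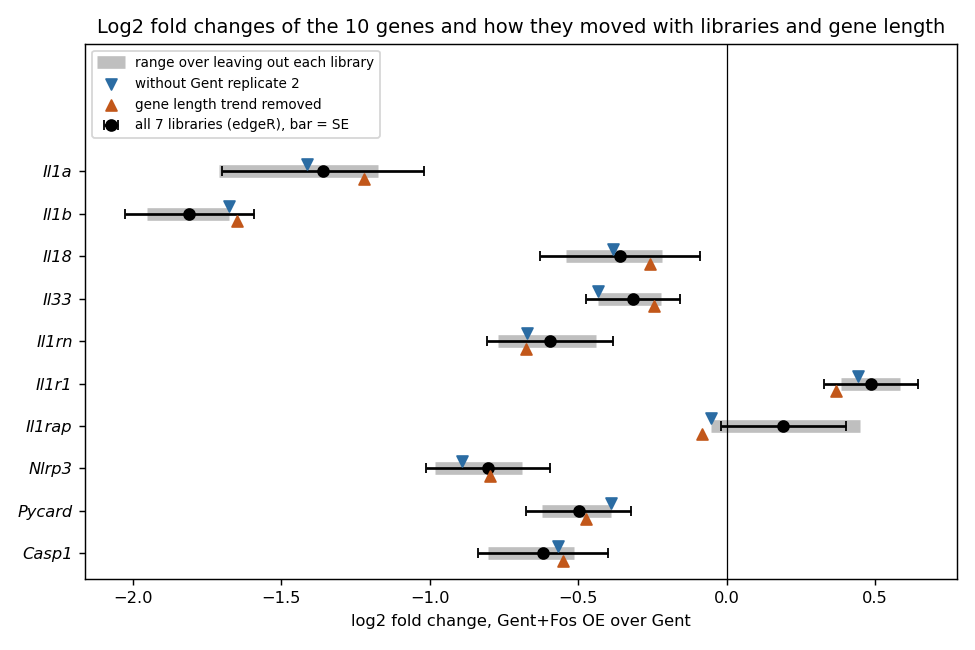
Log2 fold change of Gent+Fos OE over Gent (x axis) for each gene; black points with SE bars are edgeR on all 7 libraries, grey bars span the values with each library left out, and triangles are the fits without Gent replicate 2 or with the gene length trend removed. 8 genes lie below 0 and *Il1r1* above 0 in every fit shown, while *Il1rap* crosses 0.

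Levels of different genes were set side by side per kb of exonic length. This length joins all annotated exons of a gene and can exceed that of 1 transcript, so the order of the genes depends on it. In Gent, *Il33* stood at 134 ± 18.9 CPM per kb (SD, n = 3), 18.8-fold above *Il1rn* at 7.13 ± 1.04. *Pycard* (5.52 ± 0.727), *Casp1* (4.83 ± 0.694), *Il18* (3.99 ± 0.532), *Il1a* (3.60 ± 0.578), *Il1b* (3.36 ± 0.668), *Nlrp3* (2.88 ± 0.373) and *Il1r1* (2.56 ± 0.294) followed, and each of these overlapped its neighbour. *Il1rap* was last at 1.65 ± 0.568 CPM per kb, below the range of *Il1r1*. In Gent+Fos OE, *Il33* was again first at 108 ± 17.2 CPM per kb (n = 4), *Il1r1* stood in place 4 at 3.58 ± 0.522, and *Il1a* (1.40 ± 0.700) and *Il1b* (0.959 ± 0.0252) took the last 2 places, overlapping each other.

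**Figure D3:**
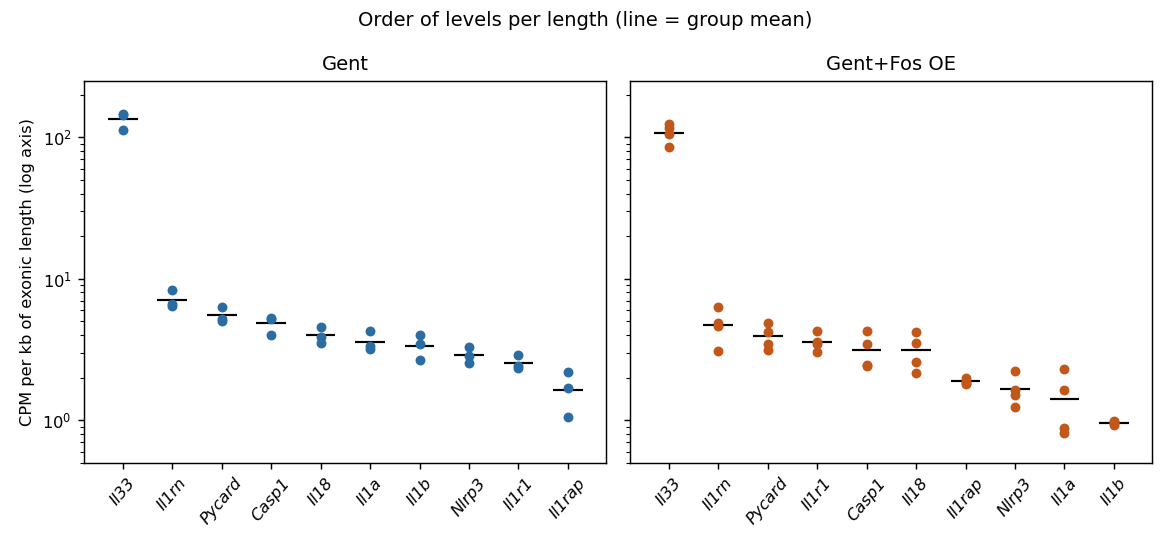
CPM per kb of exonic length (log axis) of the 10 genes, ordered by their mean in each group; points are libraries and lines group means. *Il33* is far above the rest in both panels, at 134 and 108 CPM per kb, and *Il1b* moves from place 7 in Gent to place 10 in Gent+Fos OE.

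The rest of the pathway was examined in 6 lists of 88 genes outside the 10, of which 75 could be tested by edgeR with p-values adjusted over all 17155 genes. At an adjusted p under 0.01, 3 of the 75 were called lower (4.0%) and 0 higher, the 0 standing beside 1 gene called higher by DESeq2 and 5 at an unadjusted p under 0.05. At the looser limit of an adjusted p under 0.05, where 1.19% of all tested genes were lower and 0.665% higher, 11 of the 75 were lower (14.7%) and 1 was higher. The median log2 difference of the 75 genes was -0.25, and that of all tested genes was -0.00075. The lists were chosen with earlier results of these data known, so these shares and medians are a description and not independent evidence.

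Ligands of the family outside the 10 were scarce, while the receptor for IL-33 was higher in Gent+Fos OE. *Il36a*, *Il36b*, *Il36g* and *Il1f10* did not reach 1 CPM in any library, and neither did the decoy receptor *Il1r2*, which stayed at or below 0.192 CPM. *Il1rl1* (chr1:40429570-40465415), the receptor gene for IL-33, measured 2.33, 1.89 and 1.73 CPM in Gent and 5.50, 4.84, 10.3 and 8.31 CPM in Gent+Fos OE. The lowest Gent+Fos OE library was well above the highest Gent library, and the log2 difference was 1.87 ± 0.30, or 3.65-fold (edgeR, adjusted p = 0.0132). This missed the limit of 0.01 and met the looser one. Its adjusted p was 4.02e-07 with DESeq2, ranged from 0.0168 to 0.0591 with each library left out (0.0188 without Gent replicate 2), and was 0.0112 with the gene length trend removed. In edgeR it was 0.00148 without the filter on low counts and 0.0861 with a block for replicate number. The ratio of *Il33* to *Il1rl1* levels, both per kb of exonic length, was 409 to 582 in Gent and 83.3 to 131 in Gent+Fos OE. Gene counts do not tell the membrane form of ST2 from its soluble decoy form. Mast cells are known to carry ST2, and the summed level of the 6 mast cell markers was 6.62 to 13.2 CPM in Gent+Fos OE and 7.22 to 10.96 CPM in Gent. *Cpa3* (log2 difference 0.24) and *Tpsb2* (0.21) were higher on average in Gent+Fos OE and *Cma1* (-0.28) was lower, and their part in the result was not tested. The single-Ig inhibitory receptor *Sigirr* (log2 difference -0.40 ± 0.20, adjusted p = 0.24) and the IL-18 binding protein gene *Il18bp* (-0.42 ± 0.18, adjusted p = 0.198) did not meet either limit.

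Of 17 genes of receptor signalling, 0 were called at 0.01 by edgeR, 2 were called lower by DESeq2, and 5 had an unadjusted p under 0.05. Of the 17, 17.6% were higher and 11.8% lower at that limit, near the 11.1% and 13.4% of all tested genes. The adaptor *Myd88* and the kinase-family inhibitor *Irak3* had the smallest p-values. *Myd88* measured 41.7, 40.8 and 34.6 CPM in Gent and 25.2 ± 1.48 CPM on average in Gent+Fos OE (log2 difference -0.63 ± 0.13, adjusted p = 0.0362). Reads on 11.3% of its exonic bases fall also on *Acaa1a* and were not counted, so its level is less certain. *Irak3*, whose product restrains the IRAK complex, measured 63.8, 46.4 and 45.7 CPM in Gent and 31.5, 22.1, 28.7 and 32.5 CPM in Gent+Fos OE (-0.86 ± 0.17, adjusted p = 0.0372). Neither gene overlapped between the groups, and both met the looser limit only. Both lost it without Gent replicate 3 or any 1 Gent+Fos OE library (adjusted p up to 0.14 for *Myd88* and 0.129 for *Irak3*). The kinase genes *Irak1* (0.23 ± 0.11, adjusted p = 0.232) and *Irak4* (0.02 ± 0.12, adjusted p = 0.93) met neither limit, and the median over the 17 genes was 0.10.

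Among 16 sensors and activators of inflammasomes, 0 were called at 0.01 by edgeR, 2 were called lower by DESeq2, and 4 had an unadjusted p under 0.05. At that limit 6.25% of the 16 were higher and 18.8% lower, where all tested genes gave 11.1% and 13.4%. The guanylate-binding protein genes *Gbp2* and *Gbp5*, whose products help inflammasome sensors respond to microbes, had the smallest p-values. *Gbp2* measured 44.1, 51.1 and 50.0 CPM in Gent and 35.2, 25.8, 28.1 and 27.1 CPM in Gent+Fos OE (-0.73 ± 0.14, adjusted p = 0.0297). *Gbp5* was at 10.1 ± 2.23 CPM in Gent and 5.58 ± 0.657 CPM in Gent+Fos OE (-0.86 ± 0.20, adjusted p = 0.0571). Without Gent replicate 2, *Gbp5* met the limit of 0.01 (-1.03, adjusted p = 0.00994), and without each other library its adjusted p was 0.0528 to 0.164. *Gbp2* lost the looser limit without Gent replicate 3 or Gent+Fos OE replicate 2, 3 or 4 (up to 0.127). The other sensor genes met neither limit, such as the DNA sensor *Aim2* (-0.65 ± 0.30, adjusted p = 0.206) and the flagellin sensor partner *Nlrc4* (-0.19 ± 0.23, adjusted p = 0.616). *Nlrp6* and *Mefv*, which encodes pyrin, were too low to be tested. *Nek7*, an NLRP3 partner, was at 58.5 to 88.3 CPM in Gent and 89.3 to 101 CPM in Gent+Fos OE (0.36 ± 0.15, adjusted p = 0.175).

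Among 13 effectors and inhibitors, 0 were called at 0.01 by edgeR, 3 were called lower by DESeq2, and 4 had an unadjusted p under 0.05, all 4 lower. This is 30.8% of the 13, where all tested genes gave 13.4% lower, and DESeq2 called 1.6% of all its genes lower. *Gsdmd* encodes gasdermin D, the pore protein that caspases cut to release IL-1β and to lyse the cell. It measured 25.1, 28.6 and 24.7 CPM in Gent and 17.7, 12.3, 15.7 and 15.6 CPM in Gent+Fos OE (-0.77 ± 0.15, adjusted p = 0.0348). *Casp4*, which encodes the caspase-11 that senses intracellular lipopolysaccharide, measured 20.5, 29.5 and 18.4 CPM in Gent and 12.2, 12.3, 12.1 and 14.9 CPM in Gent+Fos OE (-0.83 ± 0.18, adjusted p = 0.0472). *Trim30a*, a negative regulator of NLRP3, was the remaining gene under the looser limit (-0.96 ± 0.21, adjusted p = 0.0496), and it was named after its values were seen. Without Gent replicate 2, where it measured 23.3 CPM against 49.0 and 40.6 CPM in the other Gent libraries, *Trim30a* was called (log2 difference -1.22, adjusted p = 0.000576), but it lost the looser limit without Gent replicate 3 or any 1 Gent+Fos OE library (up to 0.158). *Gsdmd* (up to 0.124) and *Casp4* (up to 0.162) lost it without those same libraries. None of these 3 genes overlapped between the groups. The gasdermin E gene *Gsdme* (-0.29 ± 0.15, adjusted p = 0.25) and the cell lysis gene *Ninj1* (-0.60 ± 0.20, adjusted p = 0.128) met neither limit.

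Genes known to respond to IL-1 were measured as well, although other cytokines induce them too. All 3 calls among the 75 pathway genes were in this list, where 22 were tested. *Cxcl5*, a chemokine for neutrophils, measured 47.8, 59.3 and 38.1 CPM in Gent and 17.7, 10.7, 17.1 and 13.01 CPM in Gent+Fos OE, and it fell by 1.73 ± 0.21 on the log2 scale (edgeR, adjusted p = 0.00316). The acute phase gene *Saa3* fell from 429 ± 88.1 CPM (n = 3) to 97.6 ± 32.3 CPM (n = 4), a log2 difference of -2.13 (edgeR, adjusted p = 0.00404). The collagenase gene *Mmp13* fell from 12.1 ± 3.13 to 3.04 ± 0.700 CPM, a log2 difference of -1.99 (edgeR, adjusted p = 0.00368). These 3 calls were lost when Gent+Fos OE replicate 1, 3 or 4 was left out (adjusted p between 0.0115 and 0.0217). Without Gent replicate 3, *Saa3* (0.0114) and *Mmp13* (0.0212) lost theirs, as did *Mmp13* without Gent+Fos OE replicate 2 (0.0115), and every such fit kept the direction. The chemokine *Cxcl2* (-1.15 ± 0.18, adjusted p = 0.0127) and the stromelysin gene *Mmp3* (-1.66 ± 0.30, adjusted p = 0.0229) met the looser limit, and were named after their values were seen. Without Gent replicate 2, *Cxcl2* also met the limit of 0.01 (-1.21, adjusted p = 0.00676), and it lost the looser one without Gent replicate 3 (0.0512) or Gent+Fos OE replicate 3 (0.0628). *Mmp3* lost it without Gent+Fos OE replicate 1, 2 or 4 (up to 0.0912). The cytokine *Il6* was low, at 2.50 to 3.11 CPM in Gent and 0.949 to 1.71 CPM in Gent+Fos OE (-1.17 ± 0.30, adjusted p = 0.0758). At an unadjusted p under 0.05, 15 of the 22 were lower (68.2%) and 0 higher, where 13.4% of all tested genes were lower and 11.1% higher. The list was written with earlier results of these data known, so this share is not independent evidence. *Nfkbia* (-0.21 ± 0.14, adjusted p = 0.38) and *Tnfaip3* (-0.20 ± 0.22, adjusted p = 0.588), feedback targets of NF-κB, met neither limit.

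**Figure D4:**
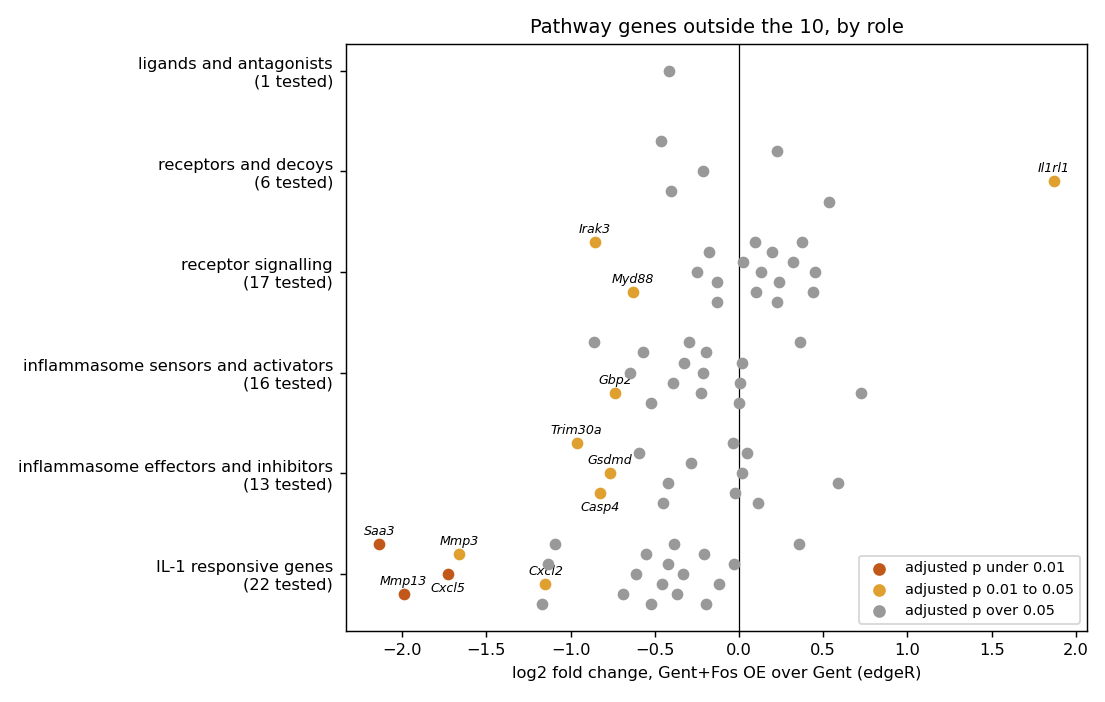
Log2 fold change of Gent+Fos OE over Gent (x axis, edgeR) of the 75 tested pathway genes outside the 10, in rows by role; each point is 1 gene, coloured by its adjusted p, and the vertical offset within a row has no meaning. The 3 genes under 0.01 lie at the left of the IL-1 responsive row, and *Il1rl1* lies alone at 1.87 on the right.

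Macrophage markers were lower in the same libraries. The summed level of 14 markers was 6375, 7283 and 5299 CPM in Gent and 4257, 3228, 3616 and 5000 CPM in Gent+Fos OE, with no overlap. The difference in mean log2 sum was -0.66 (exact permutation test, two-sided, p = 0.0571). This form of the test doubles the smaller tail, so 0.0571 is its smallest p for 4 against 3 libraries and it could not reach 0.05. The largest part of the sum is *Lyz2*, and without it the difference was -0.66. Of the 14 markers, 13 were lower and 1 (*Mrc1*, 0.05) was higher, and only *Fcgr1* fell past the limit of 0.01 in edgeR (-1.25, adjusted p = 0.00771), while DESeq2 called 6 of the 14 lower. *C1qb* was at 249 CPM per kb in Gent and 134 CPM per kb in Gent+Fos OE. In pooled tissue, fewer macrophages and less RNA per macrophage cannot be told apart.

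Each gene was therefore also set against the mean log2 level of the 14 markers in its own library, a mean that was 0.62 lower in Gent+Fos OE. *Il1b* stayed lower relative to the markers in every Gent+Fos OE library, by 0.93 on the log2 scale (-5.44 ± 0.24 against -4.51 ± 0.38, SD). *Il1a* was lower by 0.68 on this scale, and its groups now overlapped. For *Il1rn*, *Nlrp3*, *Pycard* and *Casp1* the groups overlapped, with mean differences between -0.16 and 0.12, so they differed by about as much as the markers did. *Il18* (0.28 higher) and *Il33* (0.30 higher) overlapped as well. *Il1r1* (1.09 higher) and *Il1rap* (0.86 higher) were above the Gent range in every Gent+Fos OE library on this scale, as was *Il1rl1* (2.21 higher). The subtracted mean was lower in Gent+Fos OE, so a gene with equal CPM in both groups would stand about 0.62 higher here. In CPM, *Il1rap* had no stable direction. The part of the macrophage markers in each difference was not tested. Neutrophils also make IL-1β. The summed level of their 8 markers was 0.677 to 1.93 CPM in Gent+Fos OE, and 14.3, 2.15 and 3.61 CPM in Gent replicates 1 to 3, so every Gent library was above every Gent+Fos OE library. In Gent replicate 2, 1.67 CPM of this sum was *Camp*, and no marker of the 8 separated the groups on its own. Gent replicate 1 held *Ngp* (4.76 CPM), *S100a9* (4.28 CPM) and *S100a8* (3.70 CPM), while *S100a9* was at 0 in Gent replicate 2 and all 4 Gent+Fos OE libraries, *Ngp* was at 0 in Gent replicates 2 and 3, and *Mpo* was at 0 in all 3 Gent libraries. Within Gent the sum and *Il1b* did not share an order, as replicate 1 had the highest sum and the lowest *Il1b* (5.07 CPM). The part of the neutrophil markers in the difference of *Il1b* was not tested. T and NK cell markers summed to at most 1.498 CPM, and *Nkg7* was at 0 throughout.

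**Figure D5:**
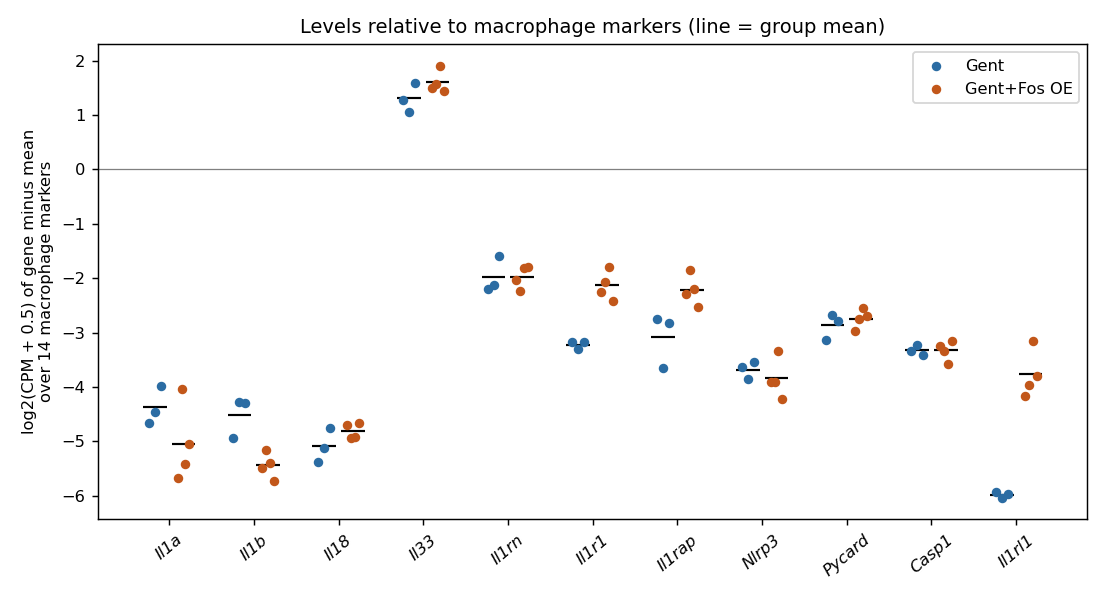
Log2(CPM + 0.5) of each gene minus the mean log2(CPM + 0.5) of 14 macrophage markers in the same library (y axis); points are libraries and lines group means. *Il1rn*, *Pycard* and *Casp1* lie at nearly the same height in both groups, *Il1b* stays lower in Gent+Fos OE (-5.44 against -4.51), and *Il1r1*, *Il1rap* and *Il1rl1* are higher. The subtracted mean is 0.62 lower in Gent+Fos OE, which raises every gene there by that amount.

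The genes whose levels over the 7 libraries lay closest to those of *Il1b* were *Irf7*, *Tyrp1*, *Dct*, *Phf11b* and *Cxcl10*. Their root mean square differences from *Il1b*, in log2 CPM centred on each gene's mean, were 0.14, 0.16, 0.17, 0.17 and 0.17 among the 14288 genes that averaged 1 CPM or more. *Irf7*, a transcription factor of the interferon response, was at 70.8 ± 7.54 CPM in Gent and 21.8 ± 2.43 CPM in Gent+Fos OE. *Tyrp1* and *Dct* encode enzymes of melanin synthesis, and *Dct* was at 48.4 ± 10.1 CPM in Gent and 18.4 ± 2.98 CPM in Gent+Fos OE. *Cxcl10*, an interferon-induced chemokine, was at 126 ± 15.5 CPM in Gent and 41.2 ± 7.52 CPM in Gent+Fos OE. Such likeness rests on 7 libraries in 2 groups and is a description only.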

How the data were processed

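RNA sequencing libraries from pools of 12 utricles (4 Gent+Fos OE, 3 Gent) were used. The authors deposited unnormalized read counts per gene, made with featureCounts 2.0.6 on an mm10 annotation per the file headers, without strand, without reads that hit several genes or places, and with both mates of a pair counted. The submitters' processing notes also name Trim Galore 0.6.10, HISAT2 2.2.1 and DESeq2 1.34.0, and the paper's methods name mm39 and, except for HISAT2, other versions. The methods state 3 replicates per condition where the labels list 4 Gent+Fos OE libraries, and all 7 libraries were used. Symbols were given to 24669 genes.

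Totals ran from 27879889 to 34335214 counts, and the spread between libraries, which are separate pools, sets the precision. Counts were fitted in R 4.3.3 with edgeR 4.0.16 (filterByExpr, TMM, quasi-likelihood F-test, no covariate), with calls where the p adjusted by Benjamini-Hochberg was under 0.01 and the log2 change over 0.25 in size. DESeq2 1.42.0 (genes with at least 10 counts in all), limma 3.58.1 (voom), other normalizations and filters, removal of the gene length trend (loess, span 0.3), a block for replicate number and leaving out each library were alternatives. Logs of CPM used a pseudocount of 0.5. Permutation tests used scipy 1.17.1, doubling the smaller tail, and figures matplotlib 3.10.9. Levels per kb divide CPM by exonic length, the joined length of all annotated exons of a gene. Promoters are from RefSeq (GRCm38.p6), and all 10 genes matched. The members and all gene lists were chosen with earlier results of these data known. All 10 members were named, with, from each pathway list, the called genes or else the 2 with the smallest p, and any other gene named was chosen after its values were seen. Replicate numbers did not pair the libraries, since same-numbered libraries' deviations correlated at -0.038 to 0.064.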

Additional observations from a re-analysis of the deposited data

Results flagged for a closer look

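Among the 4 Gent+Fos OE libraries, 35 values were scanned for a library far from the rest, and 3 stood out, where chance gives about 1 in 20. *Il18bp* was at 14.9 CPM in Gent+Fos OE replicate 1 and at 10.3 to 10.6 CPM in the other replicates, and it was the 1 library of the group that reached the Gent range. *Casp4* was at 14.9 CPM in Gent+Fos OE replicate 4 and at 12.1 to 12.3 CPM in the others, still below every Gent library. The ratio of *Il1rn* to the sum of *Il1a* and *Il1b*, per kb, was 0.947 in Gent+Fos OE replicate 2 and 2.45 to 2.69 in the others. That replicate had both the highest *Il1a* (4.53 CPM) and the lowest *Il1rn* (17.1 CPM) of its group.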

How the results depend on the processing

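Of 160 log2 differences of the 10 genes under 16 alternative fits, 157 kept their direction, and the 3 others were all of *Il1rap*. For 15 of the pathway genes named, all 240 differences kept theirs, and the other pathway genes named were not followed in this way. The counts of calls moved far more. Genes called higher were 23 with all libraries and 2 to 45 with 1 left out, and genes called lower were 48 and 3 to 93. DESeq2 called 275 higher and 336 lower, the unfiltered fit 63 and 141, the fit with the gene length trend removed 35 and 95, and the limit of 0.05 gave 114 and 205. With DESeq2, 2 of the 10 genes and 15 pathway genes were called, where edgeR called 1 and 3. Pathway genes called were 6 without the filter and 12 at the limit of 0.05. With 1 library left out, 0 to 1 of the 10 and 0 to 6 pathway genes were called, with 6 pathway genes without Gent replicate 2 (*Gbp5*, *Cxcl2* and *Trim30a* beside the 3). The cause of these moves was not tested, but the fits with a library left out have fewer samples and the limit of 0.05 is looser.

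Replicate numbers are shared by name only. A replicate block called 0 genes higher and 0 lower, 0 of the 10 and 0 pathway genes, and with the gene length trend removed as well the block called 17 genes higher, 31 lower, 0 of the 10 and 2 pathway genes. The macrophage marker difference was -0.78 to -0.55 with 1 library left out, where the smallest possible p is above 0.05, and -0.65 and -0.69 under the other normalizations. Leaving *Lyz2* out of that sum was chosen after seeing the data. Depth limits genes with few counts, such as *Il1b*, with 51 to 60 in each Gent+Fos OE library.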
